A study of Mus musculus with 9 samples.

Results

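YAP is a transcriptional coactivator that the Hippo kinase cascade keeps out of the nucleus. When it escapes that control it binds TEAD factors and turns on growth genes, and in the liver sustained YAP activity is known to enlarge the organ. The libraries described here hold the cells that surround the hepatocytes, among them the endothelial cells that line the sinusoids, the resident macrophages called Kupffer cells, monocytes recruited from blood, and T, NK and B lymphocytes. They show what was measured in that compartment after 7 days of YAP induction: 5 of the 9 single-cell libraries of the series, holding 4831 of its 8527 cells.

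The 3 induced libraries, called YAP7d, came from C57BL/6 mice of the genotype ROSA26-rtTA-IRES-EGFP with tetYAP, and the 2 control libraries, called WT, from the same background and ROSA26-rtTA-IRES-EGFP without tetYAP. Both groups received doxycycline in the food for 7 days, so the labels give the drug and the rtTA allele to both and name the tetYAP transgene, which encodes the active S127A form, as the difference. The study's methods give 3′ v2 kits for the LSL libraries, the name all 9 carry, while their labels name both v2 and v3. Batches of library preparation were not given. Per the study's methods, tetYAP mice were also crossed with Alb-CRE mice, whose Cre is driven by the hepatocyte gene albumin, and the cells isolated from the minced and digested livers were meant to be non-hepatocytes. Age was not given, and no label says which libraries came from separate animals, so p-values measure the spread between these libraries. The other 4 libraries of the series, from mice induced for 3 days (YAP3d), entered the fit only to estimate that spread.

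All cells with at least 200 detected genes were kept and their unique molecular identifiers (UMIs, one per captured transcript) were summed per library. The WT libraries held 521 and 1416 cells with 1916619 and 7335861 UMIs, and the YAP7d libraries 599, 461 and 1834 cells with 5712350, 4160318 and 25056881 UMIs. The YAP7d cells were deeper, with a median of 5717 to 11471.5 UMIs per cell against 3231 and 4357.5 in WT, and the smallest cell of YAP7d library 3 had 4041 UMIs against 835 and 1510 in the WT libraries. Mitochondrial transcripts made up 2.73 to 4.02% of the UMIs of the 5 libraries. Any pair of the 9 libraries shared 0 to 7 cell barcodes. Levels of a library are given as CPM, the counts per 1000000 UMIs of the library after TMM scaling, whose factors ran from 0.8144 to 1.066. Levels within a gate are plain shares of that gate's UMIs, per 1000000. Fold changes are log2 fold changes (log2FC) of YAP7d over WT ± SE from edgeR with TMM scaling. Their p-values were adjusted over the 12071 genes tested, with a threshold of 0.05.

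Each cell was also placed in a gate by the marker list that held most of its marker UMIs, with at least 3 such UMIs and over 2 times those of the next list. Mononuclear phagocytes took 16.6 and 23.5% of the UMIs of the WT libraries and 64.8, 74.4 and 77.7% of those of the YAP7d libraries. Endothelial cells went the other way, from 43.9 and 31.5% to 3.88, 5.33 and 3.49%, and left 24, 23 and 62 gated cells in the YAP7d libraries against 273 and 499 in WT. T and NK cells held 28.2 and 26.6% in WT and 22.4, 12.1 and 11.1% in YAP7d, and B cells 7.60 and 12.4% against 3.48, 3.70 and 1.67%. By share of UMIs, the WT and YAP7d libraries did not overlap in any of these 4 gates. Counted by cells rather than UMIs, phagocytes were 9.98 and 13.3% in WT and 51.6, 57.7 and 66.6% in YAP7d, and endothelial cells 52.4 and 35.2% against 4.01, 4.99 and 3.38%, again without overlap. The other gates overlapped by cells, with T and NK cells at 24.2 and 29.5% in WT and 29.7, 18.4 and 17.0% in YAP7d, and B cells at 8.64 and 15.7% against 7.18, 11.7 and 3.38%. With 2 libraries against 3, the exact permutation test of a share cannot go below a two-sided p of 0.2, so these shares are given without a test.

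**Figure D1:**
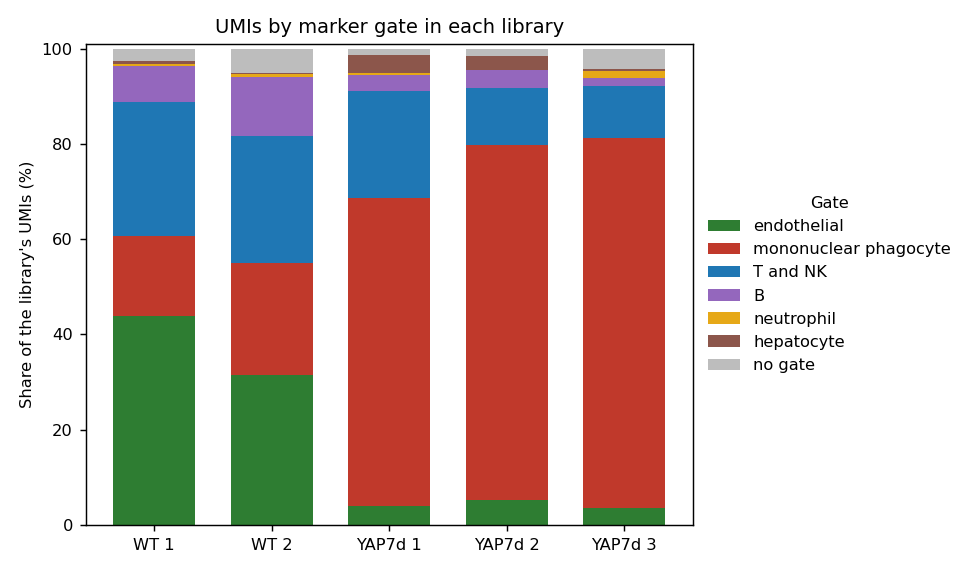
Share of each library's UMIs (%, vertical axis) carried by cells of each marker gate, for the 2 WT and the 3 YAP7d libraries; each bar is 1 library and adds up to its total. The endothelial share of 43.9 and 31.5% in WT stood at 3.88, 5.33 and 3.49% in YAP7d, and the mononuclear phagocyte share at 64.8 to 77.7%.

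The labelled tissue is liver, but hepatocytes were nearly absent: the hepatocyte gate held 2 and 2 cells in the WT libraries and 28, 19 and 11 in the YAP7d libraries. Albumin (Alb) stood at 54.0 and 90.2 CPM in WT and 305, 401 and 134 in YAP7d, with no overlap and log2FC 1.94 ± 0.87, adjusted p = 0.138. Because a summed library mixes cell types, fewer cells of a type and less RNA of a gene per cell cannot be told apart in its totals. Every gene was therefore also given a value in which the 4 large gates were held at their mean WT shares (endothelial 39.6%, mononuclear phagocyte 21.1%, T and NK 28.8% and B 10.5%), and the level within a gate is printed beside the results that turn on it. The genes that define the gates have no such value.

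The first check was the target of the transgene. The mouse Yap1 gene (chr9:7931999-8004638, GRCm38.p6) was low in all 5 libraries, at 14.7 and 10.8 CPM in WT and 3.86, 5.62 and 1.87 in YAP7d. It was lower in YAP7d with log2FC -1.83 ± 0.49, adjusted p = 0.0293, and with gate shares held the difference was -0.41 ± 0.27, adjusted p = 0.406. Of the Yap1 UMIs in the YAP7d libraries, 54.2% lay in the few hepatocyte-gated cells, where the level was 73.3, 94.0 and 147 CPM. The summed libraries therefore carry little trace of the transgene, whose transcript may also not be counted under Yap1, and they do not check the labels. All 5 libraries held Xist, the transcript of the inactive X chromosome, at 887 and 740 CPM in WT and 892, 977 and 781 in YAP7d. No UMI of the Y-linked gene Ddx3y was counted in any of them, which allows at most 3 UMIs. Without TMM scaling that is 1.57 CPM in the shallowest of the 5.

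Across all genes tested, 2184 passed the test (18.1%), of which 866 were higher in YAP7d (7.17%) and 1318 lower (10.9%). The 2 groups of libraries did not overlap for 54.5% of the genes tested, so a lack of overlap in a single gene is common here. The median log2 fold change of all genes tested was -0.02. Scaling by total UMIs in place of TMM moved that median to -0.19 and the split to 526 higher and 1616 lower, or from 39.7 to 24.6% higher. The counts rest on both WT libraries, with 509 genes passing without WT library 1 and 668 without WT library 2. In those fits the spread of the lone WT library was taken to be like that of the other groups. The counts were 1442, 1268 and 1355 without YAP7d library 1, 2 or 3. With gate shares held, 345 genes were higher (2.87%) and 368 lower (3.06%) of 12017, and without WT library 1 or 2 the counts were 22 and 49 higher and 59 and 65 lower. Of the 2160 genes that passed in the summed libraries and had a value with shares held, 510 passed again in the same direction, 243 higher and 267 lower, and 181 had the opposite sign. The median log2 fold change of the genes that passed went from 1.36 to 0.54 for those higher and from -1.92 to -0.54 for those lower.

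**Figure D2:**
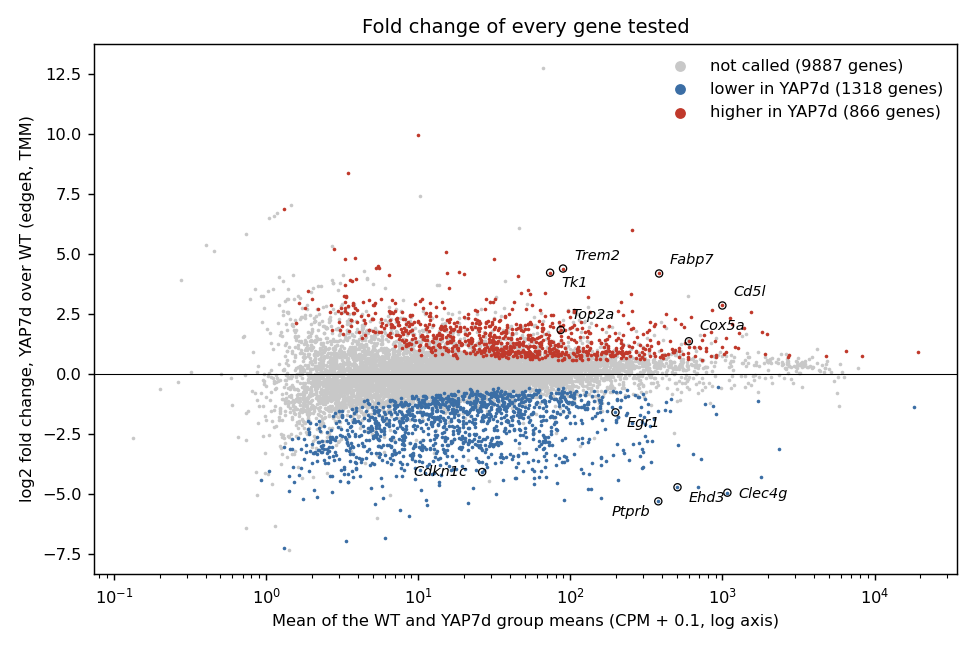
Log2 fold change of YAP7d over WT (vertical axis, edgeR with TMM) against the mean of the 2 group means in CPM (horizontal log axis, 0.1 CPM added) for the 12071 genes tested; red and blue points are the 866 genes higher and the 1318 lower at an adjusted p under 0.05, and circles mark genes described in the text. The lower genes reach down at high levels through Clec4g, Ehd3 and Ptprb, and the higher ones include Trem2, Tk1 and Fabp7.

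Genes of the sinusoidal endothelium were far lower in YAP7d. Hepatic sinusoids are lined by a fenestrated, scavenging endothelium that carries stabilins, C-type lectins and the coagulation factor VIII gene and that supplies Wnt and BMP signals to hepatocytes. Of its 20 listed genes, 19 were lower and 0 higher, with a median log2 fold change of -3.69 against -0.02 over all genes tested. Clec4g (chr8:3707066-3720695), a lectin of the sinusoidal surface, stood at 2037 and 2136 CPM in WT and 66.5, 80.1 and 54.8 in YAP7d (log2FC -4.96 ± 0.52, adjusted p = 0.00431). Dnase1l3 (chr14:7965187-7994760), which encodes a secreted nuclease, stood at 1354 and 1315 CPM in WT and 50.9, 53.5 and 46.0 in YAP7d (log2FC -4.74 ± 0.58, adjusted p = 0.00431). Ehd3 (chr17:73804841-73832093), of an endocytic recycling ATPase, stood at 1082 and 868 CPM in WT and 34.04, 38.6 and 37.2 in YAP7d (log2FC -4.74 ± 0.53, adjusted p = 0.00431). All 3 lay far below WT in every YAP7d library and varied little among those libraries. The exception in the list was Wnt9b, at 2.94 and 2.54 CPM in WT and 0, 0 and 0.491 in YAP7d (log2FC -3.23 ± 1.14, adjusted p = 0.0723).

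Held at WT gate shares, 11 of the 15 sinusoidal genes with a value were still lower and the list median was -1.26, against -0.05 for all genes. Ehd3 was then at -2.005 ± 0.12, adjusted p = 1.92e-05, Dnase1l3 at -1.99 ± 0.19, adjusted p = 0.000435 and Tek, the angiopoietin receptor, at -1.33, adjusted p = 0.00148. Within endothelial-gated cells Ehd3 was at 2543 and 2640 CPM in WT and 686, 573 and 657 in YAP7d, and Dnase1l3 at 3221 and 3991 CPM in WT and 1066, 866 and 818 in YAP7d. Per UMI of the residual endothelial-gated cells, both were thus lower in each of the 3 YAP7d libraries. The part of a different mix of endothelial cells within the gate was not tested. Flt4, the lymphatic-type VEGF receptor, and Lyve1, a hyaluronan receptor, were at 0.01 and 0.37 with adjusted p-values of 0.973 and 0.441, so the list did not move as one. The endothelial values of YAP7d rest on 24, 23 and 62 cells, and with shares held the count of 11 was 4 without WT library 1 and 5 without WT library 2.

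The 13 pan-endothelial genes, which mark vessels of any organ, were all lower in the summed libraries, with a median of -3.12. Egfl7, a secreted vessel protein, stood at 545 and 572 CPM in WT and 55.1, 87.9 and 93.6 in YAP7d (log2FC -2.82 ± 0.51, adjusted p = 0.00695). Eng, a TGF-beta co-receptor, stood at 507 and 547 CPM in WT and 44.4, 44.7 and 55.2 in YAP7d (log2FC -3.45 ± 0.53, adjusted p = 0.00465). Within endothelial-gated cells Egfl7, itself a marker of the gate, was at 1290 and 1716 CPM in WT and 1269, 1524 and 1883 in YAP7d, so its range in YAP7d overlapped that of WT. The summed list there, gate markers included, was lower without overlap, at 9868 to 10860 CPM in WT and 6995 to 8183 CPM in YAP7d. Of the 8 pan-endothelial genes with a value at held gate shares, 2 were lower, Clec14a at -1.32 and Tie1 at -0.90, and the median was -0.15; Pecam1, Esam, Emcn and Cldn5 were between -0.08 and 0.16. Cells lost to the gate because they had lost its markers cannot be told apart here from cells lost to the sample. The count of 2 was 0 without either WT library, 1 without YAP7d library 1 or 2 and 3 without YAP7d library 3, and the difference between the pan-endothelial and sinusoidal lists was not tested.

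The 15 largest falls named by rule were mostly read in endothelial cells: 95.2% of their UMIs in WT lay in endothelial-gated cells. Ptprb and Clec4g, counted among the 15, are themselves markers of that gate. The largest was Ptprb (chr10:116275502-116389538), the endothelial receptor phosphatase, at 938 and 538 CPM in WT and 21.1, 20.03 and 14.6 in YAP7d (log2FC -5.32 ± 0.61, adjusted p = 0.00431). The last of the 15 was Cyp26b1, a retinoic acid hydroxylase, at 96.6 and 67.5 CPM in WT and 2.63, 3.18 and 5.45 in YAP7d (log2FC -4.35 ± 0.69, adjusted p = 0.00494). The genes between were Ltbp4, Cyp4b1, Enpep, Clec4g, F8, Adam23, Dnase1l3, Ehd3, Tpbgl, Wnt2, Tspan7, Lhfpl2 and Ushbp1, and the next in order was Sema6a at -4.33. Cyp4b1 (chr4:115624698-115647721), a fatty acid hydroxylase, fell from 297 and 319 CPM in WT to 9.48, 10.3 and 5.99 in YAP7d. With gate shares held it remained lower at -2.36 ± 0.24, adjusted p = 0.000533, and within endothelial-gated cells it was at 712 and 977 CPM in WT and 199, 167 and 113 in YAP7d. Of the 13 of these genes with a value at held shares, 12 were lower beyond the threshold, with Cyp26b1 at -1.50 ± 0.50, adjusted p = 0.103.

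**Figure D3:**
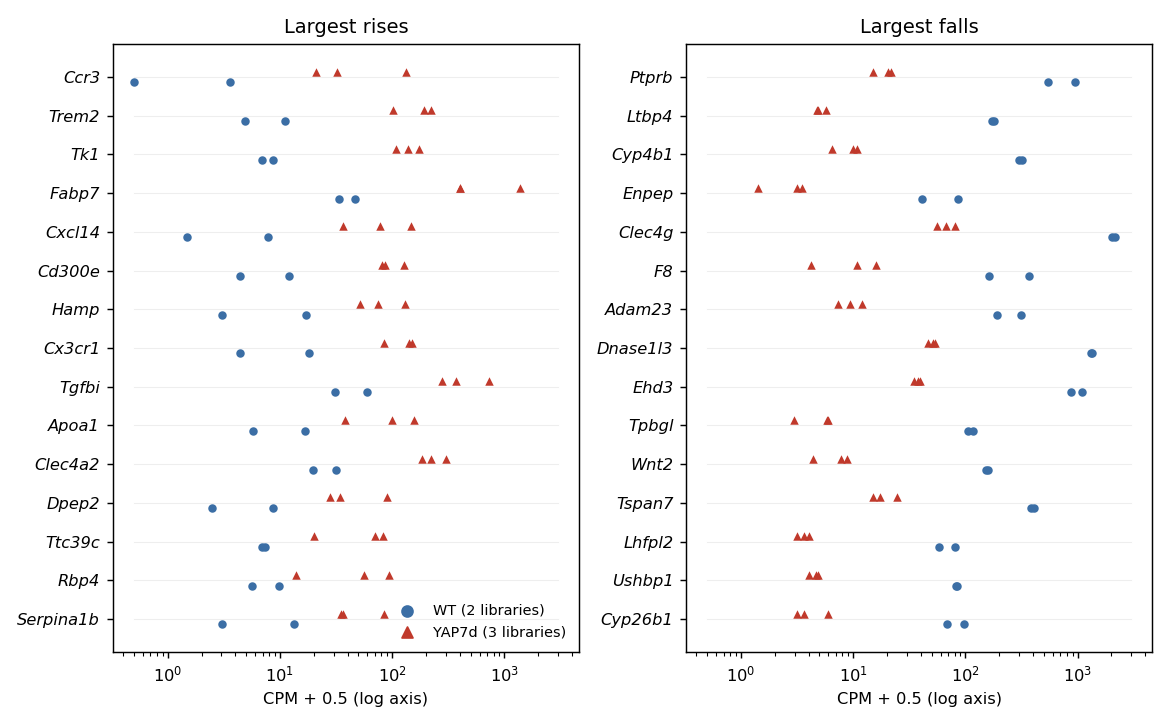
Level in each library (CPM with 0.5 added, log axis) of the 15 largest rises (left) and the 15 largest falls (right) among genes that passed the test, had a group mean of at least 50 CPM and did not overlap between groups; circles are the 2 WT and triangles the 3 YAP7d libraries. Trem2 goes from 4.41 and 10.6 CPM to 100 to 221 CPM and Dnase1l3 from 1354 and 1315 CPM to 46.0 to 53.5 CPM.

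Most of the 15 largest rises were phagocyte transcripts, and 89.5% of the 15 genes' UMIs in YAP7d lay in phagocyte-gated cells. Trem2 (chr17:48346401-48352276), a lipid-sensing receptor of macrophages, stood at 4.41 and 10.6 CPM in WT and 100, 193 and 221 in YAP7d (log2FC 4.39 ± 1.31, adjusted p = 0.0429). Within phagocyte-gated cells it was at 28.2 and 40.0 CPM in WT and 153, 254 and 224 in YAP7d, and with gate shares held it was higher at 2.09 ± 0.55, adjusted p = 0.0448. The Trem2 level was thus higher in each YAP7d library both overall and per phagocyte UMI. Fabp7 (chr10:57784923-57788450), a fatty acid binding protein, stood at 32.9 and 46.0 CPM in WT and 402, 1379 and 398 in YAP7d (log2FC 4.19 ± 0.91, adjusted p = 0.014). Phagocyte-gated cells held Fabp7 at 194 and 184 CPM in WT and 614, 1805 and 407 in YAP7d. Cx3cr1, the fractalkine receptor of patrolling monocytes and some resident macrophages, stood at 3.92 and 17.8 CPM in WT and 84.6, 141 and 150 in YAP7d (log2FC 3.38 ± 0.90, adjusted p = 0.0288). Its level within phagocytes was 21.96 and 62.6 CPM in WT and 128, 186 and 152 in YAP7d. Tgfbi, a matrix protein secreted by macrophages, and Clec4a2, an inhibitory lectin, also passed with shares held, at 1.42 ± 0.35, adjusted p = 0.0366 and 1.24 ± 0.29, adjusted p = 0.0283.

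Ccr3, an eotaxin receptor, had the largest log2FC of the 15, at 0 and 3.08 CPM in WT and 31.9, 131 and 20.5 in YAP7d (log2FC 4.81 ± 1.02, adjusted p = 0.0133). YAP7d library 2 held the high value, and with shares held Ccr3 did not pass (1.71 ± 0.49, adjusted p = 0.0631). Cxcl14, an orphan chemokine, behaved likewise in the summed libraries at 0.981 and 7.36 CPM in WT and 77.03, 147 and 35.7 in YAP7d, but passed with shares held at 1.75 ± 0.47, adjusted p = 0.0478. Cd300e, Dpep2 and Ttc39c were higher in the summed libraries and were at 1.45, 0.91 and 0.89 with shares held, with adjusted p-values of 0.137, 0.176 and 0.155. Ccl24, just outside the 15, had a log2 fold change of 2.99.

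Hepatocyte transcripts made up 4 of the 15 rises. Hamp, the iron hormone hepcidin, stood at 16.7 and 2.54 CPM in WT and 74.6, 130 and 51.4 in YAP7d (log2FC 3.38 ± 0.91, adjusted p = 0.0297), and 88.8% of its UMIs in YAP7d lay in hepatocyte-gated cells. Apoa1, the main protein of high density lipoprotein, Rbp4, the retinol carrier of plasma, and Serpina1b, an antitrypsin, followed at 3.31, 2.99 and 2.99, with 78.9, 86.7 and 84.2% of their YAP7d UMIs in hepatocyte-gated cells. Those values stand beside the 28, 19 and 11 hepatocyte-gated cells of YAP7d and the 2 and 2 of WT, whose part in them was not tested. Within phagocytes Hamp was at 6.27 and 1.74 CPM in WT and 2.16, 8.72 and 7.09 in YAP7d. Of the 20 listed hepatocyte genes 4 were higher and 0 lower (median 2.05). With scaling by total UMIs 0 were higher, and in DESeq2 10 were. The edgeR count was 0 without WT library 1, YAP7d library 1 or YAP7d library 2, 1 without WT library 2 and 6 without YAP7d library 3. With shares of the 4 large gates held, which leaves hepatocytes out, 0 of 14 passed in limma, 0 were higher and 2 lower at an unadjusted p under 0.05, and the median was 0.03.

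Macrophage and Kupffer cell genes rose in the summed libraries, where the share of phagocytes was larger as well. Of 12 general macrophage genes 8 were higher and 0 lower (median 2.05), and of 12 Kupffer cell genes 7 were higher and 1, the endothelial gene Cdh5, lower (median 1.93). Among cells with at least 4000 UMIs 4 macrophage and 2 Kupffer cell genes were higher. C1qb, a chain of the first complement component, stood at 230 and 640 CPM in WT and 2006, 3158 and 2703 in YAP7d (log2FC 2.59 ± 0.61, adjusted p = 0.0184). Within phagocyte-gated cells it was at 1333 and 2530 CPM in WT and 3057, 4141 and 2761 in YAP7d, and C1qb is itself a gate marker. Cd5l, a scavenger receptor ligand secreted by Kupffer cells, stood at 174 and 311 CPM in WT and 1193, 3002 and 1068 in YAP7d (log2FC 2.85 ± 0.55, adjusted p = 0.00888). Per phagocyte UMI, Cd5l was at 1060 and 1258 CPM in WT and 1814, 3932 and 1089 in YAP7d, with overlap. Clec4f, the Kupffer cell lectin, stood at 156 and 297 CPM in WT and 739, 1493 and 432 in YAP7d (log2FC 1.97 ± 0.50, adjusted p = 0.0247). Per phagocyte UMI the groups overlapped, at 938 and 1176 CPM in WT and 1124, 1954 and 442 in YAP7d. With shares held, 0 of 7 macrophage and 0 of 8 Kupffer cell genes were higher in limma (1 and 1 at an unadjusted p under 0.05), at medians of 0.22 and 0.10. Mertk, the receptor for dying cells, and Id3 were lower there at -1.21 and -0.77. Mertk did not pass there without either WT library, nor Id3 without WT library 2 or YAP7d library 2. The macrophage count was 0 and 4 without WT library 1 or 2 and 5, 3 and 3 without YAP7d library 1, 2 or 3, and the Kupffer cell count 0, 3, 7, 3 and 7 in the same order.

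Calls for monocyte and neutrophil genes depended on the fit. Of the 13 classical monocyte genes 0 passed in edgeR in either direction, 4 were higher at an unadjusted p under 0.05 and 1 was higher in DESeq2, and their median was 1.27. With only the WT and YAP7d libraries in the edgeR fit 5 were higher, without YAP3d library 2 it was 6, and with cells thinned to 1000 UMIs 4 of 12. Lyz2, lysozyme, stood at 1417 and 4068 CPM in WT and 3901, 4312 and 8709 in YAP7d, with overlap. Chil3, a chitinase-like protein, was at 46.1 and 176 CPM in WT and 398, 380 and 2431 in YAP7d and Ccr2, the receptor for Ccl2, at 103 and 123 CPM in WT and 193, 164 and 255 in YAP7d. YAP7d library 3 had the highest level of both. The granule genes of immature neutrophils were spread even more widely: Ngp was at 0 and 0 CPM in WT and 66.3, 0.489 and 328 in YAP7d and Ltf at 0 and 0.134 CPM in WT and 6.84, 0.489 and 53.1 in YAP7d, and neither passed, with adjusted p-values of 0.0724 and 0.0805. Of the 14 neutrophil genes 1 passed in edgeR, Wfdc21 (log2FC 2.68 ± 0.62, adjusted p = 0.0181), and 51.0% of its YAP7d UMIs lay in neutrophil-gated and 30.7% in hepatocyte-gated cells. At an unadjusted p under 0.05, 5 neutrophil genes were higher. In DESeq2, without the filter on low counts or without YAP7d library 2 it was 4, and without either WT library 0. The 6 of 12 genes of the lipid-associated macrophage list that were higher were Trem2, Gpnmb, Lgals3, Lpl, Lipa and Ctsb. Lgals3, galectin-3, stood at 181 and 286 CPM in WT and 1093, 1258 and 2056 in YAP7d (log2FC 2.65 ± 0.70, adjusted p = 0.0278) and passed with shares held (0.95 ± 0.25, adjusted p = 0.0424). With shares held, neither Trem2 nor Lgals3 passed once any of the 5 libraries was left out. The count of 6 was 0 without either WT library or YAP7d library 2, 4 without YAP7d library 1 and 2 without YAP7d library 3. Fabp5 of the same list was lower (log2FC -1.94 ± 0.35, adjusted p = 0.00696), and within endothelial-gated cells it was at 709 and 854 CPM in WT and 772, 785 and 746 in YAP7d, with overlap.

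Cell cycle genes rose nearly as a whole, and their levels were higher within some gates as well. DNA replication requires the MCM helicase, the enzymes that make nucleotides and the clamp and ligase that join fragments, and mitosis the cyclin B and Aurora kinases, kinesins and the chromosomal passenger complex. Of 23 replication genes 20 were higher and 0 lower, at a median of 1.61, and of 26 mitosis genes 25 were higher and 0 lower, at a median of 2.06. The only mitosis gene that did not pass was Nusap1, with an adjusted p of 0.0505, and in the replication list Pcna, Gins1 and Pola1 did not. Every gene of both lists had a positive log2 fold change. Tk1 (chr11:117815519-117826087), thymidine kinase, stood at 6.38 and 8.17 CPM in WT and 107, 173 and 138 in YAP7d (log2FC 4.22 ± 0.53, adjusted p = 0.00431). Among the helicase subunits, Mcm7 stood at 14.7 and 22.2 CPM in WT and 79.3, 61.6 and 72.9 in YAP7d (log2FC 1.91 ± 0.29, adjusted p = 0.00449). Mcm3 was at 45.6 and 35.6 CPM in WT and 89.8, 74.0 and 67.0 in YAP7d (log2FC 0.93 ± 0.27, adjusted p = 0.037). The ligase that joins the fragments, Lig1, and Dut, the enzyme that keeps uracil out of DNA, were close to these in their pattern. Lig1 stood at 21.1 and 18.1 CPM in WT and 75.8, 100.7 and 66.5 in YAP7d (log2FC 2.06 ± 0.35, adjusted p = 0.00592). Dut stood at 59.4 and 57.3 CPM in WT and 108, 97.2 and 106 in YAP7d (log2FC 0.83 ± 0.18, adjusted p = 0.0145). These replication genes were higher in every YAP7d library than in either WT library.

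In mitosis, Top2a, the topoisomerase that untangles sister chromatids, stood at 45.6 and 30.7 CPM in WT and 141, 173 and 89.1 in YAP7d (log2FC 1.83 ± 0.57, adjusted p = 0.0496). Birc5, the survivin subunit of the passenger complex, stood at 17.7 and 28.9 CPM in WT and 97.0, 134 and 163 in YAP7d (log2FC 2.46 ± 0.53, adjusted p = 0.0133). Ube2c, an ubiquitin-conjugating enzyme of the anaphase-promoting complex, stood at 19.6 and 34.7 CPM in WT and 95.8, 89.9 and 131 in YAP7d (log2FC 1.93 ± 0.51, adjusted p = 0.0275). Cdca3, a mitotic entry factor, stood at 10.3 and 11.5 CPM in WT and 50.01, 69.1 and 95.6 in YAP7d (log2FC 2.70 ± 0.50, adjusted p = 0.00732). Mki67, the Ki-67 protein, was at 32.4 and 18.6 CPM in WT and 108, 149 and 59.5 in YAP7d (log2FC 2.08 ± 0.64, adjusted p = 0.0473). Again no YAP7d library overlapped WT. The counts depend on both WT libraries: without WT library 1 or 2, 7 and 5 of the replication genes and 1 and 5 of the mitosis genes passed, and without YAP7d library 1, 2 or 3, 16, 13 and 17 mitosis genes. The list medians moved less, from 1.51 to 1.72 for replication and from 1.92 to 2.10 for mitosis over all 9 libraries left out in turn. Among cells with at least 4000 UMIs, 17 replication and 13 mitosis genes were higher, and with cells thinned to 1000 UMIs 10 of 17 and 13 of 18.

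Held at WT gate shares, 15 of 23 replication genes (median 1.16) and 12 of 26 mitosis genes (median 1.38) were higher and 0 lower. Tk1 was then at 2.82 ± 0.30, adjusted p = 0.000685, Birc5 at 1.92 ± 0.28, adjusted p = 0.00372 and Cdk1, the mitotic kinase, at 1.59, adjusted p = 0.00784. The summed level of the mitosis list within endothelial-gated cells was 21.4 and 97.5 CPM in WT and 1576, 970 and 1100 CPM in YAP7d, and that within T and NK cells 179 and 555 CPM against 1249, 1857 and 1562 CPM. Neither gate overlapped. Within phagocytes the groups did overlap, at 1443 and 609 CPM in WT and 1154, 1457 and 1019 CPM in YAP7d, and within B cells the list was at 60.4 to 185 CPM with overlap. The replication list within phagocytes was at 687 and 427 CPM in WT and at 1119, 1391 and 973 CPM in YAP7d. Those in endothelial cells were 321 and 372 CPM against 1531, 1186 and 1120 CPM. Tk1 itself was at 28.2 and 18.0 CPM in WT and 134, 207 and 128 in YAP7d within phagocytes. With shares held, both list counts again rest on both WT libraries, with 2 and 2 replication and 1 and 4 mitosis genes passing without WT library 1 or 2, and 7 and 9 replication genes without YAP7d library 1 or 2.

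**Figure D4:**
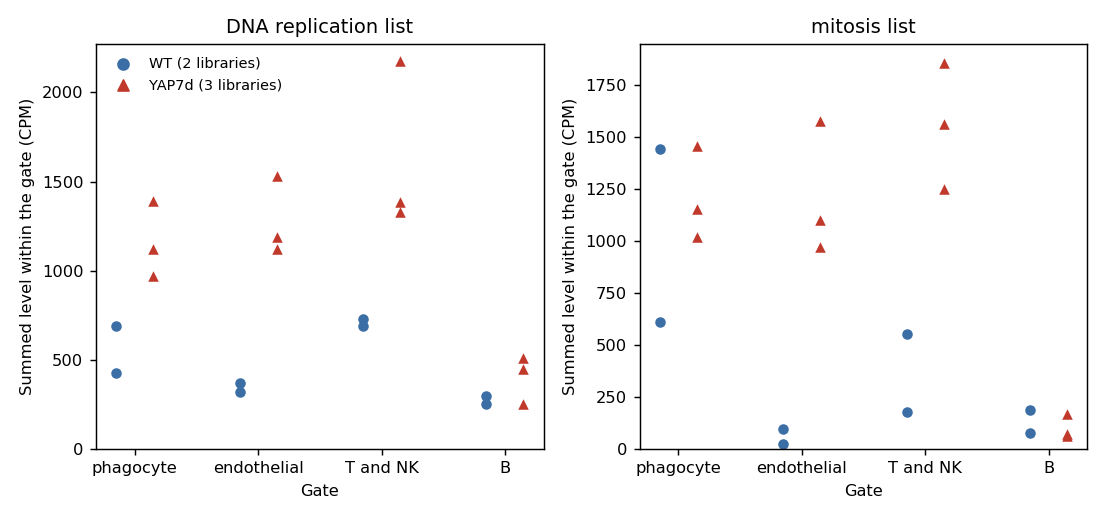
Summed level of the 23 DNA replication genes (left) and the 26 mitosis genes (right) within each gate, as CPM of that gate's UMIs (vertical axes from 0), with 1 point per library; circles are the 2 WT and triangles the 3 YAP7d libraries. The groups separate in the endothelial and the T and NK gates, while the mitosis level of phagocytes overlaps, at 609 to 1443 CPM in WT and 1019 to 1457 CPM in YAP7d.

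Of 13 listed cell cycle brakes 2 passed, both lower, which is near the 10.9% of all genes tested that were lower. Cdkn1c (chr7:143458339-143461059), the p57 inhibitor of cyclin kinases, stood at 59.8 and 39.2 CPM in WT and 2.63, 3.18 and 2.80 in YAP7d (log2FC -4.10 ± 0.69, adjusted p = 0.00563). Within endothelial-gated cells it was at 137 and 114 CPM in WT and 18.1, 13.5 and 5.71 in YAP7d. Txnip, the thioredoxin-binding growth suppressor, stood at 422 and 296 CPM in WT and 109, 121 and 114 in YAP7d (log2FC -1.64 ± 0.34, adjusted p = 0.0116). Both passed with shares held, at -2.37 ± 0.48, adjusted p = 0.0159 and -0.94 ± 0.16, adjusted p = 0.00784, and Klf4 and Btg2 passed there as well, at -1.56 and -0.71. Without WT library 1 only 1 brake passed in the summed libraries and 0 with shares held, where 1 passed without WT library 2 and 2 without YAP7d library 2, and 3 passed in the summed libraries without YAP7d library 3. Cdkn1a, the p21 inhibitor, was at 100 and 140 CPM in WT and 182, 103 and 200 in YAP7d and did not pass (log2FC 0.43 ± 0.32, adjusted p = 0.366). Of 12 p53 targets tested only Gdf15 passed, at 0 and 4.42 CPM in WT and 7.19, 18.1 and 21.8 in YAP7d (log2FC 2.46 ± 0.76, adjusted p = 0.0476). It did not pass without WT library 1, YAP7d library 2 or 3, or YAP3d library 1, 3 or 4. Nor did it pass with scaling by total UMIs or among cells with at least 4000 UMIs. The same held among cells with at least 500 genes and at most 10% mitochondrial UMIs.

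To set the promoters of the genes that rose beside those that fell, the 250 bases before the start of each gene were read from RefSeq (GRCm38.p6) and searched on both strands for CCAAT, the box of the factor NF-Y, for TTTGAA, the cell cycle gene homology region (CHR), for GGAATG, a TEAD box, and for GGCGGGAA, an E2F box. Neighbouring matches of different motifs can share letters. CCAAT was found in 19 of the 21 mitosis promoters in the table (90.5%) and in 12 of 19 replication promoters (63.2%), against 34.5% of all 27025 promoters, and TTTGAA in 33.3% and 15.8% against 16.3%. GGCGGGAA was in 3 of 19 replication and 0 of 21 mitosis promoters against 1.88% of all, and GGAATG in 10.5% and 14.3% against 12.6%. Of the 20 sinusoidal genes only 12 had a promoter in the table, and of the 22 YAP targets 15, so no share is given for either list. The last 150 bases before the start are printed 5′ to 3′ on the strand of the gene for the mitosis genes Top2a, Ube2c and Birc5, for the replication gene Mcm3 and for the sinusoidal gene Ehd3, with matches to the motifs or to their reverse complements in capitals.
Top2a, chr11:99024190-99024339, strand -: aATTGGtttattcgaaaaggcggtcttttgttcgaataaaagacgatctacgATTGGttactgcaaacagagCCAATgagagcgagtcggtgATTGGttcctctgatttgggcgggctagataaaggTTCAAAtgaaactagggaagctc
Ube2c, chr2:164769779-164769928, strand +: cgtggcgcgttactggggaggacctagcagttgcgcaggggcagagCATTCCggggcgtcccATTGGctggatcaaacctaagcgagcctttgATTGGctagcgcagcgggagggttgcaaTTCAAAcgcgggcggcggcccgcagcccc
Birc5, chr11:117849087-117849236, strand +: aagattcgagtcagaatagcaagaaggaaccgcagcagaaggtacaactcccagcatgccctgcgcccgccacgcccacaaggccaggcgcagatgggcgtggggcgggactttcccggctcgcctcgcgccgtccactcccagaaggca
Mcm3, chr1:20820313-20820462, strand -: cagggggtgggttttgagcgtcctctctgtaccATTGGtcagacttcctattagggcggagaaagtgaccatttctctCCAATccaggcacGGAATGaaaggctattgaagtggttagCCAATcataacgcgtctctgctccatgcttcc
Ehd3, chr17:73804691-73804840, strand +: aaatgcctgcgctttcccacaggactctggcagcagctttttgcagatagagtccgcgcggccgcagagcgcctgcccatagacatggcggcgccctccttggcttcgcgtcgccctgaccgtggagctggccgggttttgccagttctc
Top2a holds 4 CCAAT boxes and 1 TTTGAA in this window, Ube2c 2 and 1 with 1 GGAATG, Mcm3 3 CCAAT boxes and 1 GGAATG, and Birc5 and Ehd3 none of the 4 motifs. A match describes letters and is no evidence that a factor binds there, and its absence says nothing about the factor.

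A minority of the genes that serve cell growth passed, all of them higher and with smaller folds. Over all genes tested 7.17% were higher, and 2.87% with shares held. Of 20 nucleolar and ribosome biogenesis genes 5 were higher and 0 lower (median 0.76), and with shares held 7 were higher and the median was 0.83. Npm1 (chr11:33152498-33164142), nucleophosmin, stood at 632 and 621 CPM in WT and 1081, 955 and 1143 in YAP7d (log2FC 0.76 ± 0.17, adjusted p = 0.0157). Within phagocytes it was at 596 and 557 CPM in WT and 890, 881 and 876 in YAP7d, and within endothelial cells at 410 and 326 CPM in WT and 1210, 1105 and 913 in YAP7d. Nhp2, of the pseudouridylation complex, stood at 79.0 and 80.4 CPM in WT and 172, 152 and 212 in YAP7d (log2FC 1.17 ± 0.28, adjusted p = 0.0191) and passed with shares held (1.17 ± 0.18, adjusted p = 0.00498). All 20 genes of the list had a positive log2 fold change, but most did not pass. Without WT library 1 or 2, 0 of them passed, and with shares held 1 and 0 did, and 4 and 4 did without YAP7d library 1 or 2.

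The spliceosome list had 7 of 19 genes higher (8 with shares held), the proteasome list 6 of 27 (3), and the CCT chaperonin and prefoldin list 5 of 12 (5), with 0 lower in each and medians of 0.63, 0.57 and 0.53. Beside these and the 2 metabolic lists below stand the 7.17% of all genes tested that were higher, and 2.87% with shares held. Ran, the GTPase of nuclear transport, stood at 328 and 334 CPM in WT and 636, 568 and 642 in YAP7d (log2FC 0.90 ± 0.24, adjusted p = 0.0284). Psmb2, a catalytic subunit of the proteasome, stood at 223 and 225 CPM in WT and 354, 339 and 410 in YAP7d (log2FC 0.72 ± 0.20, adjusted p = 0.0344). Cct5, a chaperonin subunit, stood at 135 and 184 CPM in WT and 300, 261 and 328 in YAP7d (log2FC 0.89 ± 0.22, adjusted p = 0.021). The 3 genes were raised by under 1 on the log2 scale with libraries of each group close together. In glycolysis 5 of 17 genes were higher (median 0.92; 5 with shares held), namely Tpi1, Gapdh, Pgam1, Pkm and Ldha. Gapdh stood at 464 and 649 CPM in WT and 1332, 1203 and 2155 in YAP7d (log2FC 1.49 ± 0.34, adjusted p = 0.0169). Its level within endothelial cells was 329 and 488 CPM in WT and 1039, 875 and 1491 in YAP7d. In the nuclear-encoded respiratory chain 7 of 32 genes were higher (median 0.40; 4 with shares held), led by Cox5a (chr9:57517328-57532427), a subunit of cytochrome oxidase, at 330 and 344 CPM in WT and 800, 948 and 846 in YAP7d (log2FC 1.36 ± 0.24, adjusted p = 0.00618; 0.64 ± 0.13, adjusted p = 0.0163 with shares held). Of the 13 mitochondrially encoded genes 0 passed, at a median of 0.03. In edgeR 1 was lower at an unadjusted p under 0.05, and in DESeq2 0 passed. With scaling by total UMIs the counts were 4 for the spliceosome, 3 for the proteasome, 2 for the chaperonin and 3 for the respiratory chain. Without WT library 1 or 2, 0 genes of the spliceosome, proteasome, chaperonin and respiratory lists passed and 0 and 1 of the glycolysis list. With shares held, without WT library 1 or 2 the counts were 0 and 1 for the spliceosome, 1 and 2 for glycolysis, and 0 for the proteasome, chaperonin and respiratory chain. Without YAP7d library 1, 2 or 3 they were then 6, 6 and 8 for the spliceosome, 0, 1 and 0 for the proteasome, 2, 2 and 3 for the chaperonin, 3, 5 and 3 for glycolysis and 1, 1 and 2 for the respiratory chain. In the summed libraries without YAP7d library 1, 2 or 3 the counts were 3, 5 and 1 for the spliceosome, 1, 3 and 1 for the proteasome, 2, 3 and 1 for the chaperonin, 4, 4 and 3 for glycolysis and 3, 2 and 2 for the respiratory chain.

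**Figure D5:**
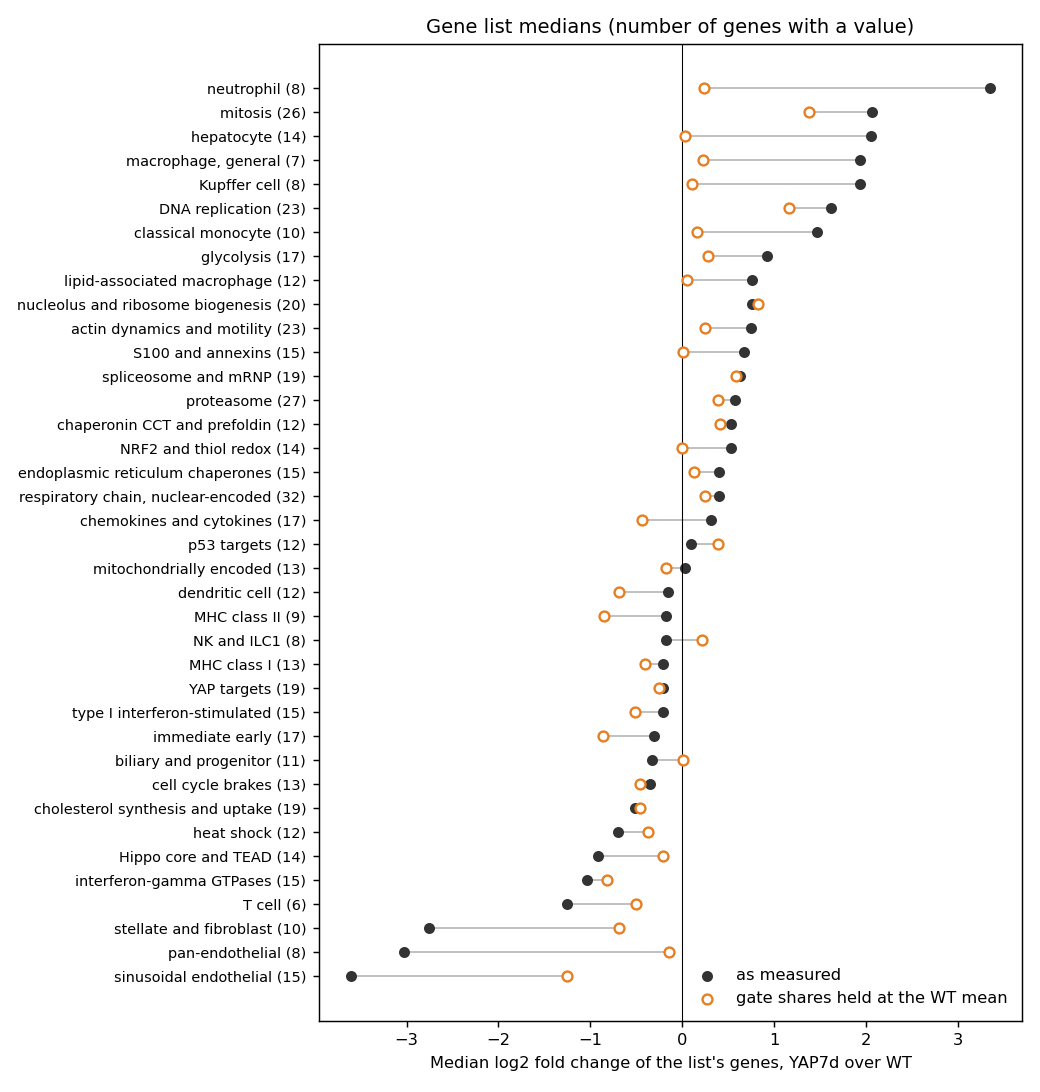
Median log2 fold change of YAP7d over WT for each gene list (horizontal axis), over the genes that have a value both as measured in the summed libraries (filled circles) and with the gates held at their mean WT shares (open circles); the number of such genes is in parentheses, and lists with fewer than 6 are left out. The sinusoidal, macrophage and Kupffer cell lists move close to or towards 0 when shares are held, mitosis and DNA replication move less, to 1.38 and 1.16, and nucleolus is at 0.83. The hepatocyte list also moves close to 0, but the held values leave hepatocyte-gated cells out.

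Within phagocytes the summed MHC class II level was below both WT libraries in each YAP7d library. Of 9 MHC class II genes 0 passed in edgeR in the summed libraries (median -0.18), with 1 higher and 2 lower at an unadjusted p under 0.05 and 2 lower in DESeq2, and Cd74, the invariant chain, stood at 5196 and 6703 CPM in WT and 5197, 3529 and 5954 in YAP7d with overlap. Within phagocytes Cd74 was at 22169 and 15716 CPM in WT and 6816, 3440 and 5396 in YAP7d. The summed class II level was 48270 and 32190 CPM in WT and 14210, 7390 and 11670 CPM in YAP7d there, and with shares held 5 of 9 were lower (median -0.86). Of 12 dendritic cell genes 0 were higher and 1 lower in the summed libraries (median -0.16), near the 10.9% of all genes lower. The 1 was Zbtb46, the transcription factor of conventional dendritic cells (log2FC -2.69 ± 0.48, adjusted p = 0.00674). Within phagocytes the summed dendritic cell list was at 11220 and 8935 CPM in WT and 4011, 3076 and 4519 CPM in YAP7d. Its genes were read in other gates too, at 1631 to 1943 CPM within B cells in WT. With cells thinned to 1000 UMIs 1 of 8 class II genes was higher, 0 were lower and the median was 0.32. The part of dendritic cells among the gated phagocytes in the class II values was not tested. With shares held, 0 class II genes passed without WT library 1 or 2, and 2, 1 and 2 without YAP7d library 1, 2 or 3.

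Among 15 interferon-gamma GTPases and related genes tested 4 were lower and 0 higher (median -1.03), and 5 were lower with shares held. Iigp1 stood at 140 and 104 CPM in WT and 31.9, 34.7 and 12.9 in YAP7d (log2FC -2.22 ± 0.41, adjusted p = 0.00755) and remained lower with shares held (-1.30 ± 0.24, adjusted p = 0.0101). Irgm1, a GTPase of autophagy, stood at 105 and 103 CPM in WT and 71.9, 41.0 and 39.7 in YAP7d (log2FC -1.03 ± 0.27, adjusted p = 0.0272), with YAP7d library 1 nearest to WT. Cxcl9, a chemokine that interferon-gamma induces, stood at 96.1 and 133 CPM in WT and 13.3, 30.3 and 8.0 in YAP7d (log2FC -2.78 ± 0.51, adjusted p = 0.00708). Of the type I interferon genes 1 of 15 was higher, Irf7, and 1 lower, Ifi44, and of 13 MHC class I genes 2 were lower, H2-Q7 and Nlrc5. These counts are near the 7.17% and 10.9% of all genes tested that were higher and lower. The GTPase count was 0 without WT library 1, 1 without WT library 2, and 9, 2 and 3 without YAP7d library 1, 2 or 3. With shares held it was 0 without either WT library and 8, 3 and 3 without YAP7d library 1, 2 or 3. In the class I list 0 passed without either WT library or YAP7d library 2 or 3 and 1 without YAP7d library 1. Of the type I genes 0 passed without WT library 1 or YAP7d library 2 or 3, only 1, higher, without WT library 2, and 2, both lower, without YAP7d library 1.

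Chemokines went both ways. Ccl9 and Ccl6, chemokines of macrophages, were higher, with Ccl9 at 32.9 and 106 CPM in WT and 287, 318 and 706 in YAP7d (log2FC 2.63 ± 0.71, adjusted p = 0.0302). Cxcl9, Cxcl10, Il1a and Csf1 were lower, so 2 and 4 of 17 passed. Among cells with at least 4000 UMIs 1 gene of the list was higher and 4 were lower. Csf1, the growth factor of macrophages, stood at 31.4 and 23.8 CPM in WT and 4.39, 2.93 and 3.19 in YAP7d (log2FC -2.96 ± 0.33, adjusted p = 0.00431). Within endothelial-gated cells Csf1 was at 68.9 and 55.9 CPM in WT and 18.1, 18.0 and 35.4 in YAP7d. It was lower with shares held too (-1.15 ± 0.29, adjusted p = 0.0364). Ccl2, which draws Ccr2-bearing monocytes, stood at 9.81 and 57.6 CPM in WT and 147, 92.1 and 156 in YAP7d, without overlap but not past the test (log2FC 1.90 ± 0.97, adjusted p = 0.189). Tgfb1 was at 212 and 274 CPM in WT and 291, 324 and 419 in YAP7d (log2FC 0.50 ± 0.27, adjusted p = 0.205). With shares held, 0 chemokine or cytokine genes were higher in limma, 2 were higher at an unadjusted p under 0.05, and 4 were lower. Ccl6 and Ccl9 did not both pass without either WT library or YAP7d library 2 or 3, and in the summed libraries the count of lower genes was 2 without either WT library. Once shares were held, no call for a lower gene was left without either WT library, that of Csf1 included, and the count was 2, 2 and 3 without YAP7d library 1, 2 or 3.

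Most T cell genes fell. The T and NK share was lower in each YAP7d library by UMIs, but by cells YAP7d library 1, at 29.7%, was above both WT libraries. Of 11 T cell genes 8 were lower (median -1.33), or 3 with cells thinned to 1000 UMIs (median -0.58), with Cd3g, of the T cell receptor complex, at 330 and 308 CPM in WT and 119, 69.4 and 82.2 in YAP7d (log2FC -1.82 ± 0.26, adjusted p = 0.00432). Within the T and NK gate the summed T cell list was at 4339 and 4630 CPM in WT and 2513, 2908 and 2799 CPM in YAP7d. The NK and ILC1 list in the same gate was at 12420 and 13340 CPM in WT and 17840, 19620 and 19390 CPM in YAP7d. Per UMI of that gate, the YAP7d libraries thus held more NK and less T cell transcript. Both lists share genes with the markers that define the gate, such as Cd3g and Gzma. A different mix of cells and different levels per cell cannot be told apart here. Without WT library 1 or 2 the count of T cell genes was 5 and 4. Of the 6 T cell genes tested with shares held 0 passed in limma and 3 were lower at an unadjusted p under 0.05, at a median of -0.51 against -1.26 as measured for the same genes. In the summed libraries 0 of 12 NK and ILC1 genes passed in edgeR or DESeq2, 1 was lower at an unadjusted p under 0.05, and Ccl5 stood at 1539 and 1814 CPM in WT and 1240, 1073 and 1502 in YAP7d. Of 10 B cell genes 0 passed in edgeR, 8 were lower at an unadjusted p under 0.05 and 6 were lower in DESeq2, at a median of -1.67. In edgeR 9 were lower with only the WT and YAP7d libraries, 7 without YAP3d library 2, 6 without YAP3d library 4 and 4 without the filter on low counts. Cd79a, of the B cell receptor complex, stood at 171 and 305 CPM in WT and 54.4, 129 and 62.6 in YAP7d (log2FC -1.55 ± 0.71, adjusted p = 0.148).

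The Hippo pathway itself and its known targets were measured here mostly outside hepatocytes, the cells that Alb-CRE targets. Of 14 Hippo and TEAD genes tested 5 were lower and 0 higher: Yap1, its paralog Wwtr1 (TAZ), Tead1, Tead2 and the TEAD cofactor Vgll4. Wwtr1 stood at 40.2 and 33.3 CPM in WT and 6.32, 7.82 and 5.10 in YAP7d (log2FC -2.54 ± 0.45, adjusted p = 0.0066). In endothelial-gated cells it was at 96.2 and 92.3 CPM in WT and 113, 94.7 and 88.0 in YAP7d, where the groups overlapped. With shares held 0 of the 14 passed in limma, and 2 were lower at an unadjusted p under 0.05. The count of 5 was 1 without either WT library and 2, 4 and 3 without YAP7d library 1, 2 or 3. Of 19 YAP targets Axl, a receptor kinase also made by macrophages, was higher, at 27.5 and 51.4 CPM in WT and 111, 175 and 144 in YAP7d (log2FC 1.83 ± 0.51, adjusted p = 0.0334), and Amotl2, Crim1 and Ptpn14 were lower, counts near the 7.17% and 10.9% of all genes tested. Amotl2, an angiomotin that binds YAP, stood at 38.3 and 36.0 CPM in WT and 6.67, 5.37 and 3.19 in YAP7d (log2FC -2.92 ± 0.56, adjusted p = 0.0088) and stayed lower with shares held (-1.24 ± 0.20, adjusted p = 0.00622), as did Crim1 (-0.84 ± 0.16, adjusted p = 0.0141). Axl did not pass without either WT library, without YAP7d library 2 or 3, or among cells with at least 4000 UMIs. Nor did Axl pass among cells with at least 500 genes and at most 10% mitochondrial UMIs. With shares held, Amotl2 and Crim1 did not pass without either WT library. The classical targets were low and scattered: Ctgf was at 1.96 and 4.42 CPM in WT and 0.877, 8.79 and 1.47 in YAP7d. Cyr61 was at 8.34 and 41.4 CPM in WT and 8.25, 15.6 and 10.99 in YAP7d, and Ankrd1 at 0 and 9.37 CPM in WT and 2.28, 24.2 and 1.96 in YAP7d. None of the 3 passed. YAP7d library 2 had the highest Ctgf and Ankrd1 of the 5.

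Immediate early genes, which the dissociation of tissue is known to induce, passed only as lower in YAP7d. Of 17 immediate early genes 3 were lower, Egr1, Fosb and Jund, with scaling by total UMIs 7 were lower, and with shares held 9 (median -0.87). Egr1 stood at 277 and 319 CPM in WT and 65.6, 104 and 123 in YAP7d (log2FC -1.61 ± 0.47, adjusted p = 0.0409). Fosb stood at 297 and 247 CPM in WT and 90.9, 135 and 86.7 in YAP7d (log2FC -1.39 ± 0.40, adjusted p = 0.0376). The summed list within endothelial-gated cells was 8684 and 9422 CPM in WT and 2899, 3599 and 3694 CPM in YAP7d. Of 12 heat shock genes Dnajb1 was lower (log2FC -1.44 ± 0.43, adjusted p = 0.0424), and the count was 0 without either WT library or YAP7d library 2 or 3 and 3 without YAP7d library 1. The part of tissue handling in the other results was not tested. In the summed libraries 0 immediate early genes passed without WT library 1 or 2 or YAP7d library 1 or 3 and 1 without YAP7d library 2, and with shares held 2 and 3 passed without WT library 1 or 2 and 4 without YAP7d library 2.

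Of all genes tested 7.17% were higher and 10.9% lower, and in the remaining lists the NRF2, endoplasmic reticulum and S100 counts were near these shares. Srebf2, the master regulator of sterol synthesis, was the only 1 of 19 cholesterol genes to pass, at 26 and 37.6 CPM in WT and 18.6, 13.9 and 20.6 in YAP7d (log2FC -0.85 ± 0.26, adjusted p = 0.0495), although 18 of the 19 had a negative log2 fold change. In edgeR with only the WT and YAP7d libraries, with RLE size factors, without the filter, with the stricter cell filter and with thinned cells 0 passed, as in DESeq2 and with the replicate block. Of 14 NRF2 genes Txn1, thioredoxin, was higher at 509 and 492 CPM in WT and 962, 1119 and 1104 in YAP7d (log2FC 1.08 ± 0.19, adjusted p = 0.00624), and of 15 endoplasmic reticulum genes P4hb was higher (log2FC 1.09 ± 0.28, adjusted p = 0.0247). Of 23 actin and motility genes 4 were higher, among them Tmsb4x at 12462 and 14544 CPM in WT and 22418, 23656 and 29574 in YAP7d (log2FC 0.90 ± 0.24, adjusted p = 0.0291), and within phagocytes Tmsb4x was at 27041 and 24316 CPM in WT and 27137, 27684 and 26558 in YAP7d, with overlap. Of 15 S100 and annexin genes Anxa3 was higher, though not among cells with at least 4000 UMIs, and S100a1 and S100a13 were lower. Without WT library 1, 0 of them passed, and without WT library 2 or YAP7d library 1 or 2 only 1, lower. Stellate cell genes were scarce, with Rgs5 and Lrat lower of 10 tested, Rgs5 at 10.3 and 8.70 CPM in WT and 0.175, 1.71 and 1.47 in YAP7d. Without WT library 1 or 2, 0 genes of the cholesterol, NRF2, endoplasmic reticulum, actin and stellate lists passed, and 0 of the cholesterol list without any 1 of the YAP7d libraries and of the actin list without YAP7d library 2 or 3. Of 11 biliary and progenitor genes, 4 erythroid genes and 2 sex-linked genes tested, 0 passed in edgeR or DESeq2 and 0 had an unadjusted p under 0.05, but all 4 erythroid genes were lower among cells with at least 500 genes and at most 10% mitochondrial UMIs. WT library 1 held the highest level of Hbb-bs, at 462 and 33.1 CPM in WT and 12.98, 0.489 and 98.8 in YAP7d.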

How the data were processed

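Single cells from dissociated mouse livers had been captured with a droplet-based 3′ kit (the labels name v2 and v3 chemistry, the study's methods v2) and the authors deposited raw UMI counts per gene and cell, made with Cell Ranger against mm10 and handled in Seurat 2. All 9 libraries of that table were used, with 0 columns unmapped. Cells with fewer than 200 detected genes were removed (35 of 8562), the counts were summed per library, and no doublet caller was run, so doublets remain. The table held 27998 genes, of which 9082 were at 0 throughout. No unit other than these counts was used. The members and the gene lists were chosen with earlier results of these data known.

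YAP7d was compared with WT by edgeR 4.0.16 quasi-likelihood tests (R 4.3.3) on the summed counts of all 9 libraries, with TMM scaling and Benjamini-Hochberg adjustment over the genes left by edgeR's filter on low counts. CPM printed per library were scaled by TMM. Levels within a gate were divided by that gate's UMIs without TMM. Values with gate shares held came from limma 3.58.1 on log2(CPM + 5), which understates changes of low genes, with gate markers left out. That setting, and its repeats without each library, were added after the data were seen. Settings planned were a replicate block, DESeq2 1.42.0, other scaling, filters and depth, thinning to 1000 UMIs and leaving out each library. Fits were tested on simulated data with known changes. Depth limits low genes: 3 UMIs, the limit a count of 0 allows, were 0.12 to 1.57 CPM without TMM in the 5 libraries, counting error only. Promoters came from RefSeq (GRCm38.p6), which was also the source of gene coordinates.

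Genes were named by rule as the 15 largest rises and 15 largest falls that passed, had a group mean of at least 50 CPM and did not overlap (leaving out predicted genes, immunoglobulin and T cell receptor segments and haemoglobins), as the 3 members of highest mean CPM among those that passed in each of the 41 lists, or the member of highest CPM where none passed, and as Yap1, Tead1-4, Ctgf, Cyr61, Ankrd1, Ccl2, Csf1, Tgfb1, Xist and Ddx3y. Other list members printed were picked after their values were seen. Of 639 listed genes 631 were in the table; Trac, Trbc1, Trbc2 and Ighd were among those not analysed here.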

Additional observations from a re-analysis of the deposited data

Results flagged for a closer look

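Among the 4 libraries of mice induced for 3 days, which entered the fit only for its spread, YAP3d library 2 stood apart in 2 of 11 measures checked. Its phagocyte-gated cells held 56.4% of the UMIs against 17.5 to 20.8% in the other YAP3d libraries (ratio of gap to range 0.917), and its score on the first principal component was 31.6 against -46.2 to -38.6 (0.902). Both exceed the 95% critical value of Dixon's test for groups of 4, which chance alone passes in about 1 of 20 groups. Without that library 3179 genes passed between YAP7d and WT against 2184 with it.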

How the results depend on the processing

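The number of genes that passed was 1135 when each cell was thinned to 1000 UMIs (415 higher, 720 lower, of 7038 tested) and 713 with gate shares held (345 higher, 368 lower), and the number higher was 526 with scaling by total UMIs and 464 among cells with at least 4000 UMIs. With each library left out in turn it ran from 509 (without WT library 1) to 3179 (without YAP3d library 2), with 35 to 1410 higher and 474 to 1769 lower. With the replicate number as a block 2064 passed (816 higher, 1248 lower) and 25 of 107 named calls were lost. Under the block 10 hepatocyte, 8 nucleolar, 2 spliceosome, 2 chaperonin, 2 respiratory chain, 1 proteasome, 1 heat shock and 3 endoplasmic reticulum genes were higher, and 4 erythroid and 0 heat shock genes were lower. The labels do not say what a number shares, and the deviations of same-numbered libraries correlated at -0.285 to 0.209, so the numbers were not taken to pair the libraries. The other planned settings of the total gave 1467 to 2741.

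Of the 107 named genes that passed, 79 did not pass without WT library 1 and 71 without WT library 2. Some log2 fold changes changed sign. With gate shares held they were Wwtr1 0.031, Ccl5 0.24, Serpina1a -0.0844, Tmsb4x -0.0693, Tead2 0.43 and Tead4 0.0489, with thinned cells Ccl5 0.10 and Cd74 0.17, and with total scaling Xist -0.0346. Ctgf was at 0.15 in DESeq2, 0.0227 with RLE size factors, 0.0262 without the filter and 0.0283 with stricter cell filters. With a library left out Hbb-bs ranged from -5.08 to 0.19, Ctgf from -1.46 to 0.83, Cyr61 from -1.86 to 0.48 and Ankrd1 from -1.35 to 8.86. The cause of these changes was not tested. With 1 WT library left, its spread was taken to be like that of the other groups.

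Among other gene list counts that moved by over 1.5 times were the following, and lists with few calls are not all included. Of these, 0 MHC class I and 0 type I interferon genes passed among cells with at least 4000 UMIs. In those cells 0 S100 and 0 YAP target genes were higher. Scaling by total UMIs left 3 lipid-associated macrophage, 4 spliceosome, 3 proteasome, 2 chaperonin, 3 respiratory chain, 2 actin and 0 hepatocyte genes higher and 7 immediate early, 5 YAP target, 4 MHC class I and 3 cholesterol genes lower. Cells with at least 4000 UMIs gave 13 mitosis, 4 macrophage, 2 Kupffer cell, 3 lipid-associated macrophage, 3 spliceosome, 2 proteasome, 2 chaperonin, 2 respiratory chain, 3 glycolysis, 1 actin and 1 hepatocyte genes higher and 3 Hippo genes lower. Thinned cells gave 10 replication, 13 mitosis, 4 monocyte, 4 neutrophil, 3 lipid-associated macrophage, 3 spliceosome, 2 respiratory chain, 1 proteasome and 1 chaperonin genes higher and 3 T cell, 3 Hippo and 3 heat shock genes lower. DESeq2 gave 12 actin, 12 respiratory chain, 11 proteasome, 10 hepatocyte, 8 nucleolar, 8 glycolysis, 4 neutrophil, 4 NRF2 and 3 endoplasmic reticulum genes higher and 7 GTPase and 6 B cell genes lower. The fit of the WT and YAP7d libraries alone gave 10 proteasome, 9 hepatocyte, 9 actin, 8 glycolysis, 5 monocyte, 4 NRF2 and 3 endoplasmic reticulum genes higher and 9 B cell genes lower. Without the filter on low counts 9 hepatocyte, 4 neutrophil, 3 NRF2, 3 respiratory chain and 2 actin genes were higher and 7 GTPase, 4 B cell and 4 stellate genes lower. The stricter cell filter left 4 erythroid genes lower. Without YAP3d library 2, 19 proteasome, 13 actin, 12 spliceosome, 12 respiratory chain, 9 nucleolar, 8 glycolysis, 6 monocyte, 5 NRF2, 3 endoplasmic reticulum and 3 S100 genes were higher and 7 B cell and 5 YAP target genes lower. DESeq2's size factors in edgeR left 2 actin genes higher. Without YAP3d library 1, 2 proteasome, 3 chaperonin, 3 respiratory chain and 2 actin genes were higher and 1 immediate early gene lower, without YAP3d library 3, 3 lipid-associated macrophage genes and 1 actin gene were higher, and without YAP3d library 4, 6 B cell genes were lower. Without YAP7d library 1, 2 actin genes were higher and 4 stellate genes lower. With shares held, 0 proteasome and 2 respiratory chain genes were higher and 2 chemokine genes lower without YAP3d library 1, 6 proteasome genes were higher without YAP3d library 2, 3 chaperonin genes higher and 3 MHC class II genes lower without YAP3d library 3, and 11 nucleolar genes higher and 3 MHC class II genes lower without YAP3d library 4. Without YAP7d library 1, 3 type I interferon genes were then lower.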
